A study of Arabidopsis thaliana with 6 samples.

Results

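Nuclear genes whose transcripts are used as markers of mitochondrial dysfunction were followed in whole Arabidopsis thaliana plants grown with and without cesium. They were 8 genes, taken by locus out of 33977 IDs in the count files: UPOX (AT2G21640), the At12Cys pair AT12CYS-1 (AT5G64400) and AT12CYS-2 (AT5G09570), OM66 (AT3G50930), AATP1 (AT5G40010), CYP81D8 (AT4G37370), SOT12 (AT2G03760) and AT2G41730. All were Col-0 plants kept for 10 days at 22 °C in days of 16 h light and 8 h dark. The 3 Mock samples grew on half-strength MS, a mineral plant medium, and the 3 CsCl samples on that medium with 1.5 mM cesium chloride, a salt whose cation resembles potassium. Messenger RNA was sequenced and counted per gene, with 32075069 to 44108369 counts per library. The labels do not tell whether the replicates were grown apart, so the spread that the p-values rest on could be a technical one. The members were chosen by name as known markers, with the differences between CsCl and Mock in these same 6 libraries already known.

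When respiration or mitochondrial protein handling is disturbed, plant cells change the transcription of nuclear genes, a process called mitochondrial retrograde signalling. In Arabidopsis the membrane-bound transcription factor NAC017 (ANAC017) is released from the endoplasmic reticulum and, with its relative NAC13 (ANAC013), acts on genes that carry a short promoter sequence, the mitochondrial dysfunction motif. The alternative oxidase gene AOX1A is the best known target, and UPOX, the At12Cys pair, OM66, CYP81D8, SOT12 and AT2G41730 have been used as further readouts.

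The mitochondrial dysfunction motif is read here as CTTG and CAAG with any 5 bases between them (the CAAG form, which reads alike on both strands) or as CTTG and CACG spaced in the same way (the CACG form), on either strand. Promoter windows ran from 250 bases before to 50 bases after each gene's annotated start, in RefSeq's TAIR10.1 assembly. The motif was described from promoters of genes of this kind, so finding it in members is no independent evidence about their differences. The matched stretches of the 5 members that hold it are shown so that the bases between the fixed letters can be compared. Each is written 5′ to 3′ on the gene's own strand, with the fixed letters of the motif in capitals.
UPOX: CTTGctctcCAAG
AT2G41730: CTTGctggaCAAG
CYP81D8: CTTGaggaaCAAG
SOT12: CGTGctcttCAAG
AT12CYS-2: CGTGacgggCAAG
The UPOX match lay at chr2:9254327-9254339 and began 51 bases before the start. That of AT2G41730 lay at chr2:17409361-17409373 and began 9 bases before the start, so that it ran across it. The CYP81D8 match lay at chr4:17571871-17571883 and began 140 bases before the start. The SOT12 match (chr2:1150645-1150657) and the AT12CYS-2 match (chr5:2970511-2970523) began 7 and 14 bases inside the transcribed region, in the reverse orientation. No match was found in this window for AT12CYS-1, OM66 or AATP1.

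The 250 bases before the start are printed for the 2 members whose match lay wholly upstream, again with the fixed letters in capitals. The first is chr2:9254128-9254377 on the plus strand and the second chr4:17571744-17571993 on the minus strand.
UPOX: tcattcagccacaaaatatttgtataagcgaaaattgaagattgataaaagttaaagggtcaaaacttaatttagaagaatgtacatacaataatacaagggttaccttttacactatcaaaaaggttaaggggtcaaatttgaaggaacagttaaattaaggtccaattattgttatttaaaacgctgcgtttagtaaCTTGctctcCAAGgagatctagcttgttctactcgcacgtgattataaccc
CYP81D8: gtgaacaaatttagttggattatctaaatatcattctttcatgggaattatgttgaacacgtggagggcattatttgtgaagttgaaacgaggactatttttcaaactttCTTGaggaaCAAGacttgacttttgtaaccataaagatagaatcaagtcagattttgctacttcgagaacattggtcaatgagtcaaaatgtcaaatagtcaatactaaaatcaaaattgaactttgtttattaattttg

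With CsCl, 6 members stood higher, AATP1 stood lower and OM66 stayed close to its Mock level. The positive differences ranged from 1.20-fold for AT12CYS-1 through 1.50-fold for SOT12, 2.13-fold for CYP81D8, 2.46-fold for AT2G41730 and 7.32-fold for UPOX to 22.0-fold for AT12CYS-2 from its summed counts. Because the members were selected on a contrast known beforehand, their values are a description and carry no p-value. In the edgeR quasi-likelihood fit over all genes, with a Benjamini-Hochberg adjusted p under 0.05, the 6 higher members and AATP1 were past the threshold. Among all 21005 tested genes 0.843% were called higher and 1.32% lower, 2.16% in all. In whole-plant RNA, fewer cells of a type and less RNA per cell cannot be told apart.

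**Figure D1:**
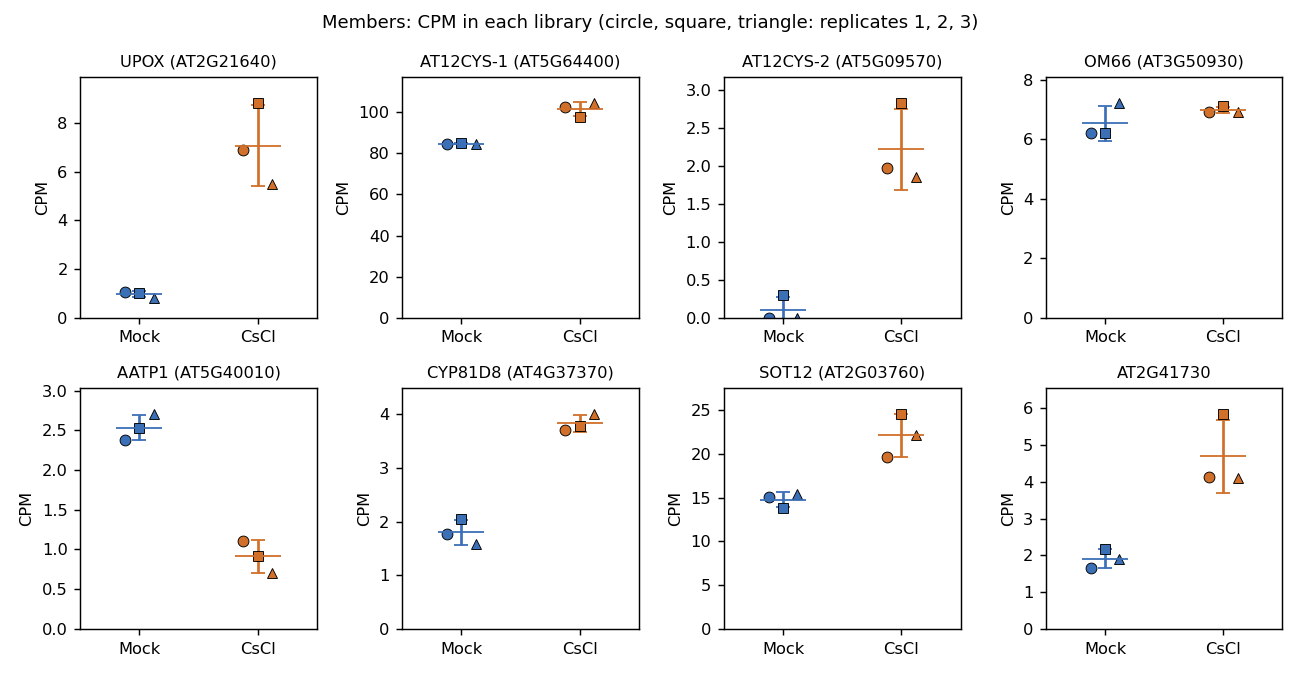
CPM (library-size scaled counts, vertical axes from 0) of the 8 members in the 3 Mock and 3 CsCl libraries; marker shapes give the replicate, horizontal bars the mean and error bars the SD (n = 3). The CsCl libraries lie above the Mock libraries in 6 panels and below them in the AATP1 panel, and the groups overlap for OM66.

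UPOX, a small protein whose name stands for up-regulation by oxidative stress, is encoded at chr2:9254378-9255743 in 3 exons. It stood at 1.04, 1.02 and 0.822 CPM (counts scaled for the size of each library) in Mock replicates 1, 2 and 3 and at 6.88, 8.82 and 5.50 CPM in CsCl replicates 1, 2 and 3. The lowest CsCl library was above the highest Mock library, and CsCl replicate 2 was the highest of the 6. The log2 difference was 2.87 ± 0.22 (SE), and 28 tested genes had a larger one, so that UPOX ranked 29 of 21005.

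The At12Cys pair encodes small mitochondrial proteins of the twin CX9C type, and its members differed widely in level. AT12CYS-2 (chr5:2970498-2972222, 5 exons) had 0, 10 and 0 counts in the Mock libraries and 64, 99 and 84 with CsCl. All of its Mock counts came from replicate 2, and the 0 in replicates 1 and 3 allows up to 0.0914 and 0.0881 CPM. The ratio of the summed counts, 247 against 10 and scaled for library size, was 22.0 with a 95% exact interval of 11.7 to 46.4. That interval covers counting error only. Both mates of a pair may have been counted, and 5 of this gene's 6 counts were even, with 0 taken as even. If mates were counted singly, the interval is too narrow even for counting error, and 0.0914 and 0.0881 CPM are too low as limits. The gene passed the filter on low counts through its CsCl libraries, so a difference was built into its being tested, and DESeq2 did not call it.

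AT12CYS-1 (chr5:25747856-25750830), the abundant member of the pair, stood at 84.6, 84.9 and 84.7 CPM in Mock and at 103, 98.0 and 105 CPM with CsCl. The groups did not overlap, although the log2 difference was only 0.26 ± 0.055 (SE). Its call was lost when replicate number entered the fit as a block, and when any single library other than Mock replicate 1 was left out. The annotated gene overlaps HEN4 (AT5G64390) by 720 bases on the same strand, as well as AT5G64395 and AT5G64401 on the other strand, and how reads in these stretches were counted is not given in the sources used here. HEN4 itself stood at 35.9 CPM in Mock and 35.5 CPM with CsCl.

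Over their best aligned stretch, which took in 69.1% of AT12CYS-1, the 2 proteins were 60.2% identical.

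OM66 and AATP1 both encode AAA-type ATPases. OM66, a protein of the outer mitochondrial membrane listed as BCS1 in the RefSeq gene table, lies in a single exon at chr3:18929526-18932181 and is known for its response to salicylic acid. It stood at 6.21, 6.20 and 7.22 CPM in Mock and at 6.91, 7.10 and 6.91 CPM with CsCl. Mock replicate 3 was the highest of all 6 libraries, and the log2 difference was 0.09 ± 0.12 (SE), between 0.05 and 0.17 over all 12 alternative settings. AATP1, also named ATPase-in-Seed-Development, lies at chr5:16020058-16021916 on the minus strand. It stood at 2.38, 2.53 and 2.70 CPM in Mock and at 1.11, 0.917 and 0.707 CPM with CsCl. Every CsCl library was below every Mock library, with a log2 difference of -1.49 ± 0.25 (SE), and only 5 tested genes had a more negative one.

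CYP81D8 and SOT12 encode enzymes outside the mitochondrion that are thought to act on stress metabolites and foreign compounds. CYP81D8, a cytochrome P450 gene at chr4:17569740-17571743 on the minus strand, stood at 1.77, 2.05 and 1.59 CPM in Mock and at 3.70, 3.78 and 4.0 CPM with CsCl. Its groups were well apart, with a log2 difference of 1.09 ± 0.18 (SE). SOT12, a cytosolic sulfotransferase gene at chr2:1149295-1150663 on the minus strand, acts on salicylate, flavonoids and brassinosteroids. It stood at 15.1, 13.8 and 15.4 CPM in Mock and at 19.6, 24.5 and 22.2 CPM with CsCl. The lowest CsCl library, replicate 1, was above the highest Mock library, and the log2 difference was 0.58 ± 0.093 (SE).

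AT2G41730 encodes a protein of unknown function, from a single exon at chr2:17409370-17410334. It stood at 1.64, 2.17 and 1.91 CPM in Mock and at 4.14, 5.84 and 4.11 CPM with CsCl. CsCl replicate 2 was again the highest, and the log2 difference was 1.30 ± 0.20 (SE).

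In 6 members all 3 CsCl libraries were above all 3 Mock libraries, an arrangement that 10% of all tested genes showed, and in AATP1 all were below, which 9.75% showed (19.8% either way). Within the CsCl group, replicate 2 had the highest CPM for 5 of the 8 members, replicate 3 for AT12CYS-1 and CYP81D8, and replicate 1 for AATP1. The salicylate marker PR1 (AT2G14610) stood at 0.679, 0.315 and 4.29 CPM in CsCl replicates 1, 2 and 3 and was highest in replicate 3. The largest CsCl value was 1.60 times the smallest for UPOX, 1.57 times for AATP1 and 1.53 times for AT12CYS-2. For OM66 it was 1.03 times.

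Set on a scale per length (CPM per kb of annotated exon), the order of the members changed with CsCl. In Mock, AT12CYS-1 stood highest at 32.4 CPM per kb, followed by SOT12 at 10.8, OM66 at 2.46, AT2G41730 at 1.98, AATP1 at 1.36, UPOX at 1.31, CYP81D8 at 1.01 and AT12CYS-2 at 0.111. The ranges of AATP1 and UPOX overlapped in Mock, as did those of UPOX and CYP81D8. With CsCl the order was AT12CYS-1 at 38.9 CPM per kb, SOT12 at 16.2, UPOX at 9.62, AT2G41730 at 4.87, OM66 at 2.63, AT12CYS-2 at 2.45, CYP81D8 at 2.14 and AATP1 at 0.490. The ranges of OM66, AT12CYS-2 and CYP81D8 were not all distinct, since that of AT12CYS-2, from 2.05 to 3.13, took in the other 2. UPOX moved from the sixth to the third place.

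Other genes known or thought to be targets of retrograde signalling were mostly higher as well. Of 13 on the list, 8 were called higher and none lower, with a median log2 difference of 1.24 against 0.0052 over all tested genes. DESeq2 called 7 of them higher and none lower, and 11 of the 13 had an unadjusted edgeR p under 0.05. Over all 21005 tested genes 0.843% were called higher, and 3029 had an unadjusted edgeR p under 0.05. Of the 8 higher genes, 4 passed the filter on low counts through their CsCl libraries only, with fewer than 3 Mock libraries at the cutoff of 0.293 CPM: AT2G04050, AT2G04070, NDB4 and HSP23.6-MITO. As for AT12CYS-2, a difference was built into their being tested. The edgeR counts of 8 and 11 include these 4 genes, and no single p is given for such genes here or further on. AT2G04050, a MATE-type transporter gene, went from 0.122, 0.241 and 0.176 CPM to 8.09, 11.1 and 7.03 CPM. The groups were far apart, with a log2 difference of 5.57 ± 0.29 (SE). NDB4 (AT2G20800), an alternative NADH dehydrogenase gene, had 4, 0 and 2 counts in Mock and 72, 86 and 70 with CsCl (log2 difference 5.03 ± 0.53, SE). Without CsCl replicate 2 the count of higher genes was 5 in place of 8. UGT74E2 kept its call in 5 of the 12 alternative settings and AT2G04070 in 4. The list was drawn up with earlier results of these data known.

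**Figure D2:**
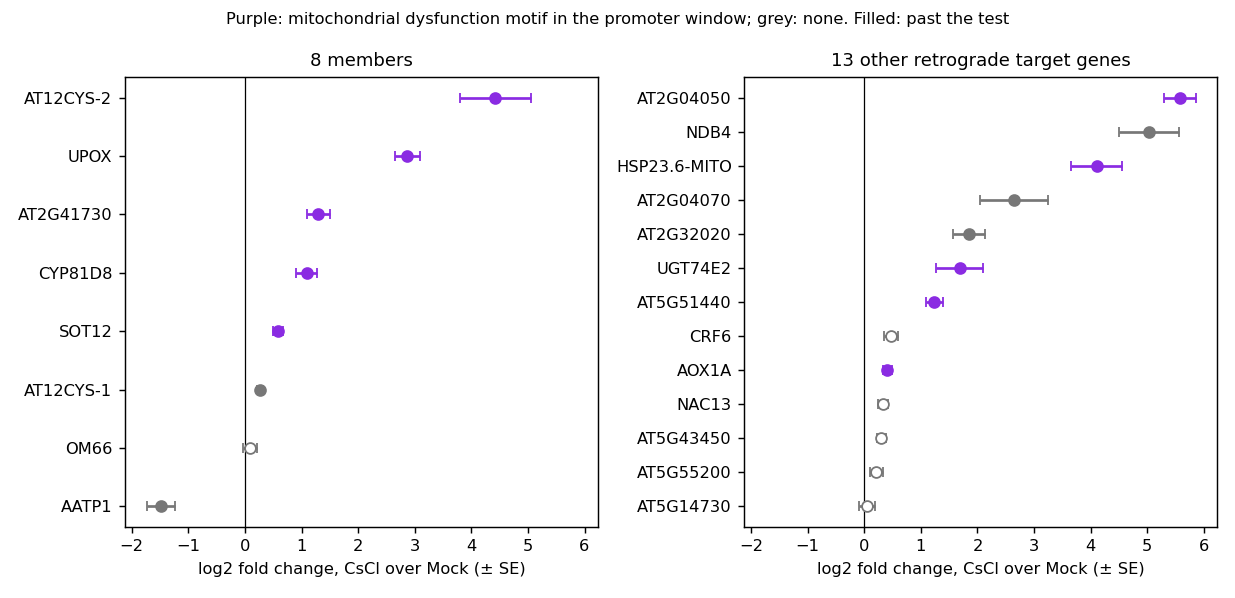
Log2 fold change of CsCl over Mock (horizontal axis, ± SE) for the 8 members and for 13 other target genes of retrograde signalling; filled points passed the test over all genes and purple marks the motif in the promoter window. All 5 members and all 5 other targets with the motif lie above 0, and so do the other targets without it, AT12CYS-1 and OM66. AATP1, also without it, is the only gene plotted under 0.

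Alternative respiration, in which electrons bypass the energy-conserving complexes of the respiratory chain, had 3 of 11 tested genes called higher and none lower. Over all tested genes 0.843% were called higher. These were NDB4, NDB3 (AT4G21490) at 0.329 ± 0.138 and 1.42 ± 0.256 CPM (mean ± SD, n = 3; log2 difference 2.09 ± 0.37, SE) and AOX1A (AT3G22370). NDB4 and AOX1A are also on the list of other targets, so their calls were already counted there. NDB3, like NDB4, passed the filter through its CsCl libraries only. AOX1A stood at 36.1, 30.5 and 35.4 CPM in Mock and 43.1, 49.2 and 42.7 CPM with CsCl. AOX1D (AT1G32350), below the filter on low counts, had no count in any Mock library and 6, 12 and 32 counts with CsCl. DESeq2 called 4 genes of this list higher and 0 lower, and 4 had an unadjusted edgeR p under 0.05.

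Genes that regulate the response had a median log2 difference of 0.041. For comparison with their calls, edgeR called 0.843% of all tested genes higher and 1.32% lower. Of 14 tested regulators 0 were called higher by edgeR and 0 by DESeq2, 1 was called lower by both, and 3 had an unadjusted edgeR p under 0.05. NAC017, listed as NAC17 (AT1G34190), stood at 59.3 CPM in Mock and 57.1 CPM with CsCl, and NAC13 (AT1G32870) at 11.3 and 14.2 CPM (edgeR adjusted p = 0.0963). The lower gene was MYB29 (AT5G07690), a transcription factor of glucosinolate synthesis that also acts on AOX1A, at 21.6 ± 1.50 and 14.9 ± 1.55 CPM (edgeR adjusted p = 0.0071). Release of NAC017 from its membrane is not visible in transcript counts.

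Nuclear genes for respiratory complexes, porins and protein import made up a list of mitochondrial housekeeping. Mitochondrial content itself was not measured. Of these 34 genes 1 was called higher and 0 lower by edgeR, with the same numbers by DESeq2, and 1 had an unadjusted edgeR p under 0.05. The edgeR shares over all tested genes were 0.843% higher and 1.32% lower. The 34 genes had a median log2 difference of -0.010. Their summed level ran from 4378 to 4729 CPM in Mock and from 4441 to 4631 CPM with CsCl. The higher gene was AT3G15640, a subunit gene of cytochrome c oxidase, at 37.2 ± 1.99 and 48.2 ± 1.30 CPM (log2 difference 0.38 ± 0.064, edgeR adjusted p = 0.00614).

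Lists of other responses that members may take part in had 1 or 2 calls each. That was 16.7% of the general oxidative stress list, 20% of the salicylate list and 9.09% of the detoxification list, against 2.16% of all tested genes. Their median log2 differences were 0.067, 0.026 and -0.049, and 1, 3 and 4 genes had an unadjusted edgeR p under 0.05. On the detoxification list 7 of the 11 tested genes lay below 0. Of 6 tested hallmark genes of general oxidative stress other than UPOX, 1 was called higher and 0 lower. This was TI1 (AT2G43510), a trypsin inhibitor gene, at 3.47, 2.23 and 1.94 CPM in Mock and 8.86, 7.68 and 16.1 CPM with CsCl (edgeR adjusted p = 0.000862). Its highest library was CsCl replicate 3, unlike UPOX. Of 10 tested salicylate and defence genes, 1 was higher, PR1, and 1 lower, EDS5 (AT4G39030), a gene of salicylate transport, at 17.4, 17.1 and 16.5 CPM in Mock and 11.5, 12.1 and 13.6 CPM with CsCl (edgeR adjusted p = 0.0163). PR1 had 2, 4 and 6 counts in Mock and 22, 11 and 194 with CsCl, passed the filter through its CsCl libraries only, and was no longer called once CsCl replicate 3 or any one Mock replicate was left out. Of 11 tested genes of xenobiotic detoxification, 1 was called higher, UGT74E2 (AT1G05680), at 4.14, 1.02 and 0.822 CPM in Mock and 5.49, 8.31 and 5.39 CPM with CsCl (edgeR adjusted p = 0.0495, from 2.05e-05 to 0.323 over the alternatives). Mock replicate 1 was the highest Mock library for UGT74E2, whose call was also counted on the list of other targets. CYP81D11 (AT3G28740), a relative of CYP81D8 on the detoxification list, stood at 72.5, 40.4 and 40.1 CPM in Mock and 53.8, 46.7 and 53.4 CPM with CsCl.

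**Figure D3:**
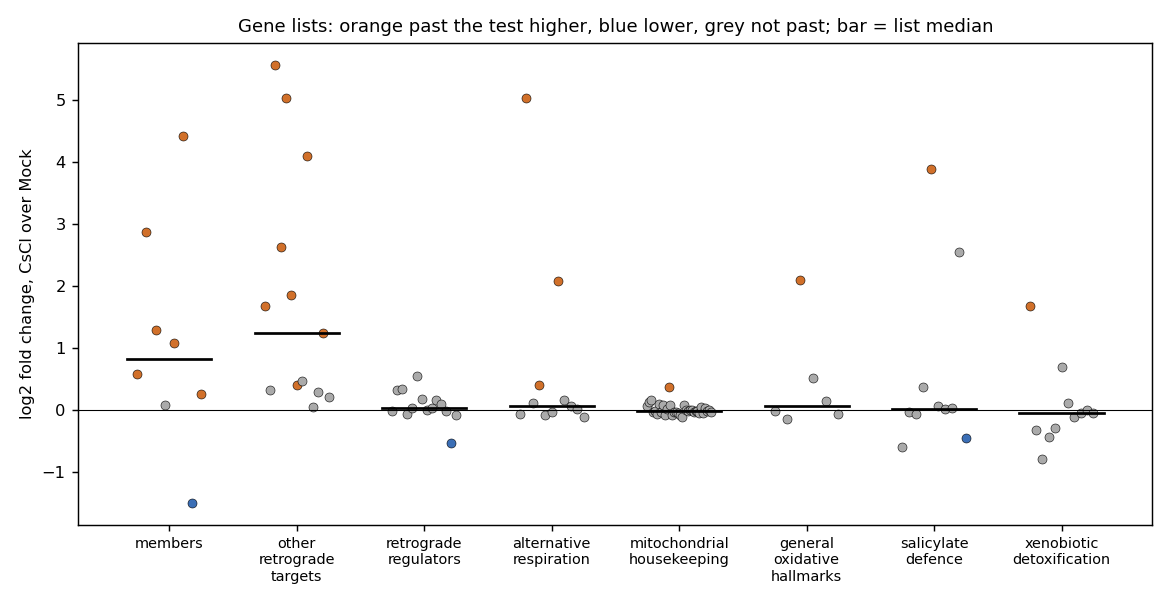
Log2 fold change of CsCl over Mock (vertical axis) for every tested gene of the members and 7 other lists; orange points were called higher, blue lower and grey neither, and black bars are list medians. Most high points lie among the members and the other retrograde targets, whereas the 34 genes of mitochondrial housekeeping lie close to 0. Genes that lists share are plotted in each of them.

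Markers of root tissue differed between the groups as well. Of 8 root markers 5 were called lower and 0 higher, among them CASP2 (AT3G11550), a gene of the Casparian strip, at 25.8 ± 1.74 and 18.7 ± 0.802 CPM (edgeR adjusted p = 0.00537) and the beta-glucosidase gene PYK10 (AT3G09260) at 5788 ± 171 and 4462 ± 299 CPM (edgeR adjusted p = 0.0084). Among all tested genes 1.32% were called lower and 0.843% higher. Between 1 and 4 of the root markers were lower when a library was left out. The summed level of the 8 markers ran from 5920 to 6254 CPM in Mock and from 4522 to 5087 CPM with CsCl, and no marker was at 0. Of 8 leaf markers 0 were called by edgeR or by DESeq2, 1 had an unadjusted edgeR p under 0.05, and their summed level ran from 60892 to 70117 CPM in Mock and from 57728 to 62174 CPM with CsCl. The part of tissue make-up in the members' values was not tested.

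Relatives of the members by sequence went both ways. Among proteins at least 50% identical to a member over at least 70% of its length there were 23 besides the members, of which 16 were tested, 3 called higher and 2 lower. The shares over all tested genes were 0.843% higher and 1.32% lower. Of the 3 higher relatives, AT5G24640 and AT3G28580 passed the filter through their CsCl libraries only. The closest relative of AT2G41730 is AT5G24640, with 89.1% identical residues and also of unknown function. It had 0, 2 and 2 counts in Mock and 33, 48 and 46 with CsCl (log2 difference 4.71 ± 0.59, SE). The best shared stretch of their transcripts, 503 bases long, was 86.9% identical.

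The tested relatives of AATP1 over the 50% limit did not share its direction, although not all of them were called. Its closest, AT3G28580, with 77.2% identical residues, had 4, 10 and 6 counts in Mock and 32, 34 and 58 with CsCl (log2 difference 2.42 ± 0.41, SE). Another relative, AT3G28540, stood at 3.23 ± 0.321 and 5.55 ± 0.566 CPM (edgeR adjusted p = 0.0148), a call lost on leaving out CsCl replicate 2 or 3. For both genes every CsCl library was above every Mock library. AT3G28510, with 58.4% identical residues, stood at 0.761, 0.0602 and 0.176 CPM in Mock and 0.247, 0.516 and 0.353 CPM with CsCl, so that its groups overlapped (log2 difference 0.17 ± 0.64, edgeR adjusted p = 0.938). Among more distant relatives, AT4G30250, at 41.6%, was below Mock in every CsCl library, as AATP1 was, without being called (log2 difference -0.40 ± 0.19, edgeR adjusted p = 0.368). The difference between AATP1 and its relatives was not itself tested.

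None of the tested relatives of CYP81D8, which has 13 over the 50% limit, was called higher. Its closest relative, CYP81D2 (AT4G37360), was below the filter, with 2 counts in 1 library. CYP81F4 (AT4G37410), an enzyme of indole glucosinolate modification, was lower at 50.4 ± 5.43 and 37.1 ± 1.42 CPM (edgeR adjusted p = 0.0076), a call lost without CsCl replicate 2. For SOT12 the tested relative AT3G45070 was lower, at 40.6 ± 2.89 and 30.2 ± 1.46 CPM (edgeR adjusted p = 0.00597), also lost without CsCl replicate 2, while the closest, AT2G03770, was below the filter at 0.160 and 0.238 CPM. The closest relative of UPOX, AT4G39235, stood at 4.09 ± 0.531 and 4.76 ± 0.561 CPM (edgeR adjusted p = 0.569). That of OM66, the tandem neighbour AT3G50940, was below the filter at 0.337 and 0.258 CPM. At a looser limit of 40% identity 33 relatives were tested, with 4 called higher and 5 lower. AT2G18193, at 47.1% to OM66, was called higher (edgeR adjusted p = 0.0394), a call kept in 6 of the 12 alternative settings. SOT17, SOT18 and ST4B, relatives of SOT12 under the 50% limit, were called lower. Of the 16 genes next to the members on the chromosome 8 could be tested, and of these 0 were past the edgeR test and 0 had an unadjusted p under 0.05.

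**Figure D4:**
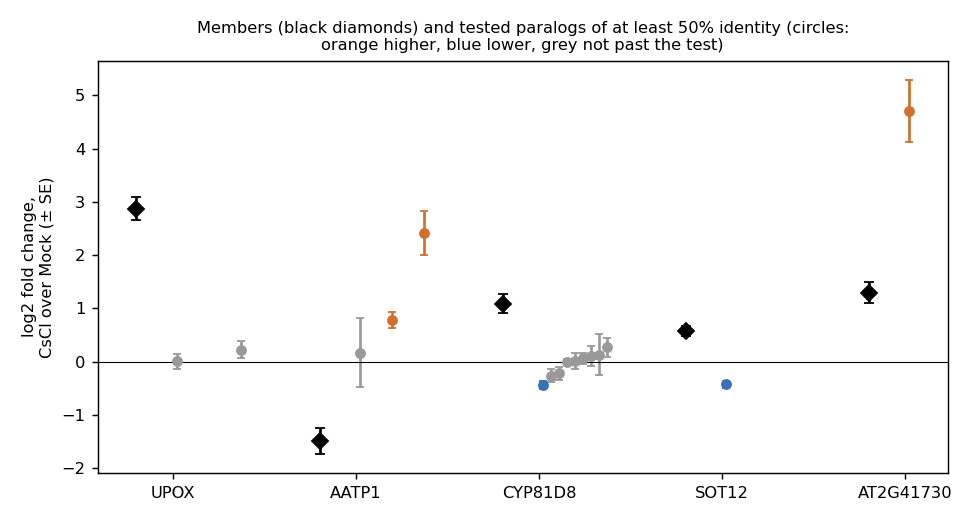
Log2 fold change of CsCl over Mock (vertical axis, ± SE) of the 5 members that have tested relatives of at least 50% protein identity (black diamonds) and of those relatives (circles; orange called higher, blue lower, grey neither). AATP1 lies below 0 with 2 relatives called higher, and CYP81D8 lies above 0 with relatives near or below 0.

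The members with the mitochondrial dysfunction motif were UPOX, AT2G41730, CYP81D8, SOT12 and AT12CYS-2, and those without it were AT12CYS-1, OM66 and AATP1. The CAAG form stood in the window of 3 of the 8 members and in 0.904% of 27444 promoters of protein-coding genes, the CACG form in 2 of the 8 and in 0.536%. The motif was described from promoters of genes of this kind, so its presence in members is not independent of why they are used as markers. Among tested relatives over the 50% limit, AT5G24640, AT3G28580 and AT4G39235 held the CAAG form, and their stretches are shown for comparison with the members.
AT5G24640: CTTGgtggaCAAG
AT3G28580: CTTGactaaCAAG
AT4G39235: CTTGttctgCAAG
They lay at chr5:8436272-8436284, chr3:10715377-10715389 and chr4:18268022-18268034. AT5G24640 and AT3G28580 were called higher, whereas AT4G39235, the closest relative of UPOX, was not, and its groups overlapped. AT3G28580 had the motif, and AATP1, its closest relative among the members, had no match in the window. AT3G28540, the other relative of AATP1 called higher, had no match either.

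Over all genes, the motif went with a higher share of calls. With the members left out, 235 tested genes held either form, and 24 of them, or 10.2%, were called higher, against 135 of 20142, or 0.67%, of those without it. Of these 24, 12 passed the filter through their CsCl libraries only, as did 34 of all 177 higher genes. The shares called lower were 1.28% and 1.35%. Leaving out the listed genes and all relatives of the members as well, 15 of 221, or 6.79%, were higher, against 0.64%. Among these 15, AT4G12735, AT5G54450, HSP17.4, AT5G54550, AT2G42065, AT3G58150 and AT3G21080 passed the filter through their CsCl libraries only. A difference was thus built into their being tested. The count of 24 was 14 without Mock replicate 2, 15 without Mock replicate 3, 12 without CsCl replicate 2 and 13 without CsCl replicate 3. In those fits 0.532%, 0.575%, 0.434% and 0.42% of all tested genes were called higher. The median log2 difference of the 235 was 0.018. These shares are a description of the promoters and carry no test.

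Among the higher genes with the motif were some with known mitochondrial roles, named after their values were seen. LETM1 (AT3G59820), for an inner membrane protein, stood at 8.38 and 11.7 CPM, and mtHsc70-1 (AT4G37910), for the matrix chaperone, at 97.7 and 118 CPM. LETM1 kept its call in 7 of the 12 alternative settings and mtHsc70-1 in 6. Another higher gene with the motif, not named for a mitochondrial role, was NAC044 (AT3G01600), a transcription factor gene. It stood at 0.359 and 1.80 CPM and kept its call in all 12.

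For the other motifs searched, the shares called higher among genes with them lay between 0.83% and 1.21%. The W-box, bound by WRKY factors, was present as TTGACC in 5 of the 8 members and 14.2% of all promoters. As TTGACT it stood in 5 members and 21.8% of promoters. Of tested genes with these forms 1.17% and 1.21% were called higher, against 0.75% and 0.697% of those without them. The as-1 core TGACG, bound by TGA factors, stood in 2 members and 23.1% of promoters. With it 0.83% were called higher, without it 0.803%. The heat shock element core GAANNTTC stood in AT12CYS-2 alone among the members and in 11.6% of promoters. Its shares were 0.832% with it and 0.807% without it. Both strands were searched, and none of the printed matches in the members takes in a W-box. In AT12CYS-2 a TGACG lies inside the match.

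**Figure D5:**
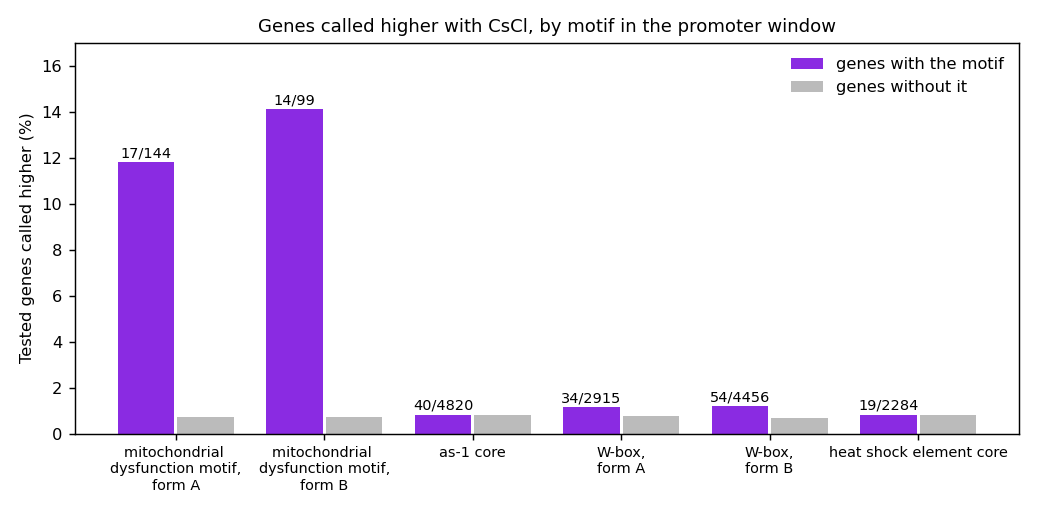
Share of tested genes called higher with CsCl (vertical axis, percent) among genes with (purple) and without (grey) each motif in the promoter window, members included; the numbers over the bars are genes called higher and genes tested. Both forms of the mitochondrial dysfunction motif stand at 11.8% and 14.1%, and the other 4 motifs between 0.83% and 1.21%.

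Genes whose levels ran most like the members' mean over the 6 libraries were picked among 19087 tested genes with a mean of at least 1 CPM. They were AT1G66920 (Pearson r = 0.998), NAC044 (0.997), AT3G54830 (0.996), AZI1 (AT4G12470; 0.995) and AT2G04050 (0.994). The 6 libraries form 2 groups, so these values carry the difference between groups. On deviations from the group means alone, the 5 most alike were UGT85A3 (AT1G22380), AT4G14930, GBF4 (AT1G03970), AT4G31360 and ST4C (AT1G13430), at r from 0.990 to 0.996, and none of these was past the edgeR test. Among the members these deviations ran in different ways, and only the highest and lowest pairs are named here. UPOX and AT2G41730 had r = 0.62, AT12CYS-2 and CYP81D8 0.85, and UPOX and AT12CYS-1 -0.85 over the same 6 libraries. The 6 libraries leave few independent deviations. Those of AT12CYS-2 were set mostly by its 0, 10 and 0 Mock counts, so its r of 0.85 rests largely on Mock replicate 2.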

How the data were processed

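The deposited files hold raw counts per gene, 1 per sample. Per the labels, library preparation used an mRNA kit that marks strand. STAR, featureCounts, FastQC, edgeR and TAIR10 are named in the submitters' processing notes. Versions, gene annotation, strand option and treatment of reads with several hits are not given in those sources. Even numbers made up 65.5% to 73.4% of counts from 1 to 50, so both mates of a pair may have been counted. Samples were grouped by treatment label. The main test was edgeR 4.0.16 (R 4.3.3), with filterByExpr (minimum count 10, 21005 genes kept), TMM factors, quasi-likelihood fit with group as its only term and Benjamini-Hochberg adjustment. CPM use the TMM-scaled library sizes. SE is the unshrunk coefficient over the square root of F. The fit was tested on simulated data. Between replicates the chi-square per gene ran from 6.42 to 13.0, above sampling noise.

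Names, positions, exons, promoters and translated coding sequences come from RefSeq's TAIR10.1; the count files carry no coordinates. No tables of promoters or proteins were at hand, so both were built from that genome. Relatives were found with blastp. Shares of promoters are over protein-coding genes. Named genes are the members, the 2 smallest adjusted p per list and direction, relatives past the test with each member's closest, and the genes most alike. Members and lists were chosen with earlier results of these data known. Alternatives were RLE factors, total counts only, no filter, DESeq2 1.42.0, the replicate number as a block, halved counts and leaving out each library; a wider promoter window and the genes left out beside the motif were chosen after seeing the data.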

Additional observations from a re-analysis of the deposited data

How the results depend on the processing

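Every member's log2 difference kept its sign under all 12 alternatives, and 94 of the 96 values stayed within the spread between replicates; the exceptions were AT12CYS-1 at 0.30 with total counts only and AT12CYS-2 at 9.31 without Mock replicate 2, where no Mock count is left and the value is no bound. Of the members 5 to 6 were higher and 1 was lower when a library was left out. With total counts only, 180 genes were lower in place of 277, 2 root markers were lower and 0 detoxification genes higher; with no filter on low counts, 301 genes were higher and 518 lower, with 2 salicylate genes higher and 2 detoxification genes lower. DESeq2 called 0 detoxification genes higher and halved counts 0 salicylate genes higher. Replicate numbers are shared only as numbers: deviations of same-numbered samples correlated at -0.0733, 0.0446 and 0.00499. The replicate block gave 146 higher and 210 lower genes, 5 higher members and 3 lower root markers. At 40% identity 5 relatives were lower in place of 2. In the 250 bases before the start alone, and in 1000 bases, 0 members held the CACG form, and in 250 bases 0 held the heat shock core.

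Leaving out a library in turn gave 89 to 231 higher and 90 to 330 lower genes, 5 to 8 other targets higher, 0 to 2 salicylate genes higher and 0 to 1 lower, 0 to 2 detoxification genes higher, 2 to 4 alternative respiration genes higher, 1 to 4 root markers lower, and 2 to 4 relatives higher and 0 to 2 lower. The causes were not tested. Depth limits genes such as AT12CYS-2, NDB4, AT5G24640, AT2G04050, AT3G28580, HSP23.6-MITO and PR1. Their Mock counts were 10 or fewer per library and may stand for fewer fragments.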
